A study of Mus musculus with 2 samples.

Results

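The genes described here are 40 members of the interferon response and of antigen presentation on major histocompatibility complex (MHC) class I. The list rests on gene symbols only, but it was chosen with earlier results of these data known. Of the 40 members, 39 had a row among the 32285 genes of the count tables. Mx1 had no row under that symbol and was not analysed here. The members fall into 18 genes best known from the type I interferon response (17 with a row), 11 best known from the type II response, and 11 of the class I pathway. They were counted in single cells of bowel and mesenteric adipose tissue of B6/C57 mice aged 8 to 12 weeks, taken 14 days after colotomy (an incision of the colon) or after a sham operation. Each operation gave 1 library, in which the bowel and adipose cells were pooled after marking with 2 hashtag antibodies. The labels do not say how many mice went into a library.

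Type I interferons bind a receptor made of Ifnar1 and Ifnar2, and type III interferons, which act mainly on epithelium, bind Ifnlr1 with Il10rb. Both receptors lead to a complex that contains Stat2 and Irf9 and binds interferon-stimulated response elements (ISREs) and switches on antiviral genes. Interferon-gamma, the type II interferon, acts through Ifngr1 and Ifngr2 and on gamma-activated sites (GAS) in DNA; Irf1, the guanylate-binding proteins, the immunity-related GTPases and the chemokines Cxcl9 and Cxcl10 are among its known targets. Class I molecules, a heavy chain with B2m, show peptides cut by the proteasome to CD8 T cells; interferons can replace 3 catalytic subunits of the proteasome by Psmb8, Psmb9 and Psmb10.

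After filtering (at least 500 UMIs, the counted RNA molecules, and 300 genes per barcode, and under 20% mitochondrial UMIs), 9246 colotomy cells with a median of 778.5 UMIs and 42143 sham cells with a median of 1328 UMIs remained, and 108 of these barcodes occurred in both libraries. Without those barcodes the summed log2 ratio of the type I members, colotomy to sham, was -1.67 in epithelial-like and -0.46 in fibroblast-like cells, against -1.67 and -0.47 with them. Cells were clustered without the members and without other interferon and class I genes, and 23 of 32 clusters were named from marker genes. Each operation has a single library, so differences have no replicate check and were not tested. Levels are UMIs per 1000000 summed UMIs of a class (CPM), and each interval is a 95% interval that covers counting error only. A gene is called higher or lower when its CPM differed at least 1.5-fold, given at least 10 UMIs over both libraries. The operation cannot be told apart from anything else that differed between the 2 libraries. Xist RNA, made in female cells, was at 394 CPM in the colotomy library and 0.724 CPM in the sham library, while Y-linked RNA was at 156 and 210.1 CPM, so the mix of sexes differed. In the colotomy library these levels also differed by class. Xist and Y-linked RNA were at 1691 and 67.9 CPM in mesothelial-like cells and at 65.1 and 126 CPM in plasma cell-like cells. Only 9 colotomy mesothelial-like cells had a Y-linked and no Xist UMI. B-like cells made up 29% of sham cells and 1.27% of colotomy cells, and their RNA was also found in other classes. Over 9 B cell markers, the median level in fibroblast-like cells was 6.49% of that in sham B-like cells in the colotomy library and 32% in the sham library. In epithelial-like cells it was 4.12% and 25.2%, and in macrophage-like cells 9.54% and 43.3%. Summed ratios are also given with this share of B cell RNA subtracted, and so are the single genes where stated.

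**Figure D1:**
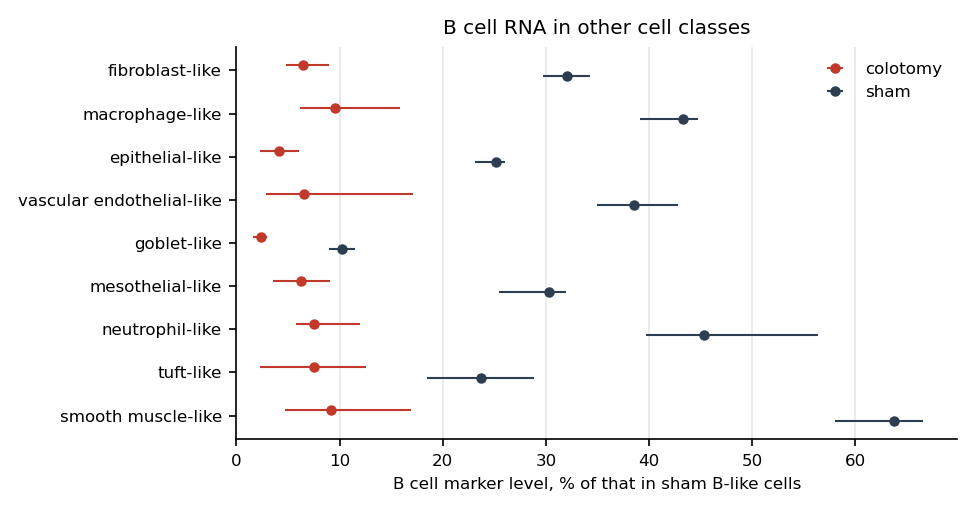
B cell marker level in other cell classes, as a percent of that in sham B-like cells; points are the median of 9 markers and bars run from the lowest to the highest marker. The sham values lie above the colotomy values in each of the 9 classes drawn, at 32% against 6.49% in fibroblast-like cells.

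The 3 groups of members were highest in different cells. Among the 16 named classes, summed type I RNA in the sham library was highest in mesothelial-like cells, which line the peritoneum, at 1989 CPM (95% interval 1918 to 2061), and lowest in goblet-like cells, the mucus-secreting cells, at 500.5 CPM (95% interval 477 to 525). Vascular endothelial-like cells (1798 CPM) and fibroblast-like cells (1654 CPM) followed, and their intervals did not overlap with that of mesothelial-like cells. Single members had their highest sham level in different classes. Ifitm3, a membrane protein that hinders virus entry, was highest in mesothelial-like cells (763 CPM, against 34.5 CPM in B-like cells), and Ifi27l2a in fibroblast-like cells (700.4 CPM). Isg15, a ubiquitin-like protein, Ifit1, which binds viral RNA, and Irf7, a factor that amplifies the response, were highest in epithelial-like cells (94.8, 94.8 and 302 CPM). Rsad2 was highest in neutrophil-like cells (113 CPM) and Usp18 in migratory dendritic cell-like cells (70.7 CPM). An unnamed cluster led by Siglech, with 7 colotomy and 277 sham cells, held 2187 CPM of type I RNA in the sham library; Irf7 was at 187 CPM there.

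Summed type II RNA in the sham library was highest in vascular endothelial-like cells at 716 CPM (95% interval 678 to 756), followed by migratory dendritic cell-like cells at 623 CPM (95% interval 586 to 662). These intervals did not overlap. Iigp1 (143 CPM), Gbp7 (114 CPM) and Gbp4 (111 CPM), GTPases that attack intracellular pathogens, each had their highest sham level in vascular endothelial-like cells. The transcription factor Irf1 had its highest in migratory dendritic cell-like cells, at 262 CPM. Cxcl9, which draws CXCR3-bearing T cells, stood out in conventional dendritic cell 1-like cells: 257 CPM in 667 sham cells, against 46.1 CPM in vascular endothelial-like and 1.28 CPM in B-like cells. The 83 colotomy cells of that class held 6 Cxcl9 UMIs (84.8 CPM).

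Summed class I RNA in the sham library was highest in migratory dendritic cell-like cells at 10448 CPM (95% interval 10294 to 10603), then in conventional dendritic cell 1-like cells (5650 CPM) and T-like cells (5166 CPM), and lowest in goblet-like cells (1930 CPM). Of the 11 class I members, 10 were highest in migratory dendritic cell-like cells; the other, the immunoproteasome subunit Psmb9, was highest in conventional dendritic cell 1-like cells, at 388 CPM. Across the 16 named classes the median Spearman correlation of sham CPM between class I members over 55 pairs was 0.64, against 0.25 over the 136 pairs of type I members. Psmb8 was most like Psmb9 (rho 0.88), and Ifit1 most like Xaf1 (rho 0.89). These correlations describe 16 classes of 1 library, which share free RNA and depth.

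**Figure D2:**
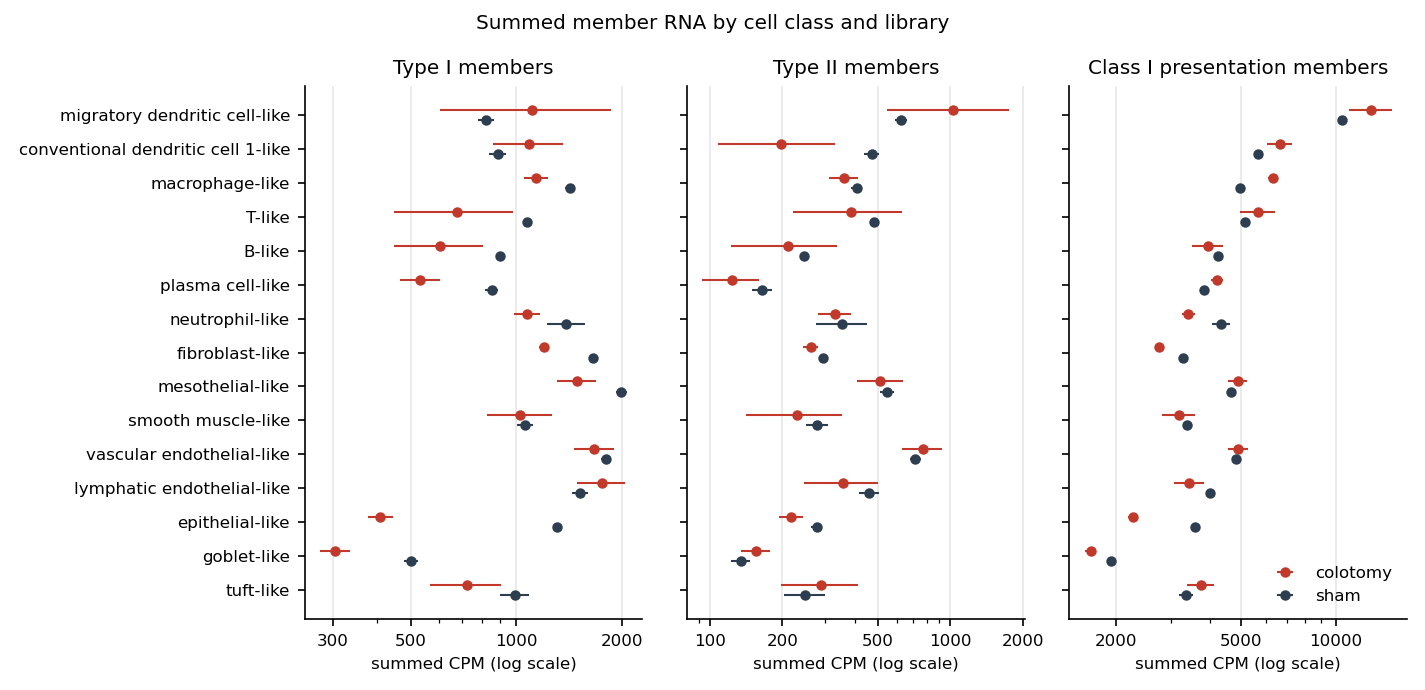
Summed CPM (log scale) of the 17 type I, 11 type II and 11 class I members in 15 cell classes of the colotomy library (red) and the sham library (dark); bars are 95% Poisson intervals. Class I RNA reached 10448 CPM in sham migratory dendritic cell-like cells, and the widest gap between libraries for type I RNA was in epithelial-like cells (409.7 against 1306 CPM).

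Promoters of the members that the comparison turns on are shown first. Isg15 and Rsad2 were among the lowest relative to sham in colotomy epithelium, Ifitm3 was the type I member that was not lower there, and B2m and Psmb8 are class I members with ratios of opposite sign in fibroblast-like cells. The sequences run from 250 bases before to 50 bases after the transcription start (RefSeq, GRCm38.p6) and are written 5′ to 3′ on the gene's strand, with capitals marking matches to the ISRE core (GAAA, any 2 bases, GAAA) or the GAS core TTCNNNGAA on either strand. They lie at chr4:156200769-156201068 (minus strand), chr12:26456403-26456702 (minus strand), chr7:141010695-141010994 (minus strand), chr2:122147437-122147736 (plus strand) and chr17:34197945-34198244 (plus strand).
Isg15 promoter: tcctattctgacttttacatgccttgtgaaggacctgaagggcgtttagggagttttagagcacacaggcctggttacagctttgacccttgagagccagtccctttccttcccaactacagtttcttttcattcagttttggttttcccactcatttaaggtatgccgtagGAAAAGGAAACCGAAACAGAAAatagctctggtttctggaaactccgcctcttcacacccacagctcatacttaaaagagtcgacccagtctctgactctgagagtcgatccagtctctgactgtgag
Rsad2 promoter: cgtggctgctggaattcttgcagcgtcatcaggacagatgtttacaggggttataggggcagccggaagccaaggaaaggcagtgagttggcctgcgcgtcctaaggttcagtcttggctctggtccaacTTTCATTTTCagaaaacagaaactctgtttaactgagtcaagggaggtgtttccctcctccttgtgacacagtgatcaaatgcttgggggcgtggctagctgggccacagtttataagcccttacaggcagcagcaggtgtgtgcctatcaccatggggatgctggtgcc
Ifitm3 promoter: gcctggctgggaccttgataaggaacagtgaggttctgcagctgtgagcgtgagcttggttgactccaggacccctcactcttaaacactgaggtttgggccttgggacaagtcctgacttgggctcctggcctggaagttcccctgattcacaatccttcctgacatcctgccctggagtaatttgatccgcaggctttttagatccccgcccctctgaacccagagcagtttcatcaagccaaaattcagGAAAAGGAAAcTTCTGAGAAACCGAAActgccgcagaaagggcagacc
B2m promoter: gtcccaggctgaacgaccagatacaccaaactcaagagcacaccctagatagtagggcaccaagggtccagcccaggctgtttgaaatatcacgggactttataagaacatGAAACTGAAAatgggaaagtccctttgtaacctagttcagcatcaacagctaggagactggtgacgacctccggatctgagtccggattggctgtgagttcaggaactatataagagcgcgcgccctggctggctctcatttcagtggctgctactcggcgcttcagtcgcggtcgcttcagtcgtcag
Psmb8 promoter: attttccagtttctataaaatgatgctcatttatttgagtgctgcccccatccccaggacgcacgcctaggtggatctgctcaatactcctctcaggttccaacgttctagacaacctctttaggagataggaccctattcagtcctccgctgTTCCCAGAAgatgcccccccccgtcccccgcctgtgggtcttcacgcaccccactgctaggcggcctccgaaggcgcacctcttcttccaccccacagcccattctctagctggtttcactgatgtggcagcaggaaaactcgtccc

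Isg15 held 3 overlapping ISRE matches starting 78, 72 and 66 bases before its start, and Rsad2 held 1. Ifitm3 held 2 ISRE matches and 1 GAS match, all after its start. B2m held 1 ISRE match and Psmb8 1 GAS match. The Psmb8 stretch was placed by a RefSeq start and lies within the gene's span in another annotation (chr17:34197721-34201454). Of the 40 members, 33 had a promoter entry. An ISRE match was found in 8 of 14 type I, 6 of 9 type II and 2 of 10 class I members, and in 3.44% of all 32851 promoter entries. A GAS match was found in 4, 3 and 1 of them, and in 8.3% of all entries. A match is a run of letters and not a measured binding site.

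Type I RNA was lower in colotomy epithelium. In epithelial-like cells (1353 colotomy and 2234 sham cells, with median depths of 865 and 1962 UMIs), 16 of 17 type I members were lower in the colotomy library and 0 were higher. Of all 13100 genes with at least 10 UMIs, 16.7% were lower and 25% higher. The median log2 ratio of the 17 members was -1.96, against 0.15 over all these genes. Summed type I RNA was 409.7 CPM in the colotomy library and 1306 CPM in the sham library, a ratio of 0.314 (95% interval 0.288 to 0.341).

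Isg15 was at 10.5 CPM in the colotomy library (15 UMIs) and 94.8 CPM in the sham library (518 UMIs), a log2 ratio of -3.18 (95% interval -4.03 to -2.45). Irf7 was at 43.9 CPM in the colotomy library (63 UMIs) and 302 CPM in the sham library (1651 UMIs), a log2 ratio of -2.78 (95% interval -3.17 to -2.42). Rsad2, an enzyme that makes a chain-terminating nucleotide, was at 3.48 CPM in the colotomy library (5 UMIs) and 33.8 CPM in the sham library (185 UMIs), a log2 ratio of -3.28 (95% interval -4.92 to -2.03). The colotomy and sham intervals of these 3 genes did not overlap. Ifit1 was at 14.6 and 94.8 CPM in the colotomy and sham libraries, and Oasl2, a relative of the oligoadenylate synthetases, at 14.6 and 92.7 CPM. Usp18, which removes Isg15 from proteins and damps the receptor, was at 1.39 and 14.6 CPM, from 2 and 80 UMIs, a log2 ratio of -3.39 (95% interval -6.46 to -1.49). The subunits of the transcription complex differed less: Irf9 was at 34.8 and 61.1 CPM and Stat2 at 18.1 and 46.6 CPM. Ifitm3 was the member not lower, at 111 and 85.4 CPM (log2 ratio 0.38, 95% interval 0.12 to 0.65).

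The epithelial clusters differed in type I level and in their share of each library, so the difference was also read within them. Cluster 12, led by the surface colonocyte genes Aqp8, Car4 and Saa1, held most sham cells (1215 of 2234), and cluster 10, led by Clca3b, Dmbt1 and Slc12a2, held most colotomy cells (902 of 1353). Summed type I RNA in sham cells was 2036 CPM in cluster 12, 1144 CPM in cluster 18, led by Car1 and Gsdmc4, and 516 CPM in cluster 10. In colotomy cells it was 925, 395 and 344 CPM. The ratio of colotomy to sham was thus 0.454 (95% interval 0.372 to 0.549) in cluster 12, 0.346 (95% interval 0.288 to 0.411) in cluster 18 and 0.666 (95% interval 0.585 to 0.757) in cluster 10. The whole-class ratio of 0.314 was lower than each of these, and the libraries differed in cluster shares. In cluster 18, 14 of 17 type I members were lower and 0 higher (background 20.9% lower, 18.7% higher); in cluster 12, 10 of 17 and 0 (background 18% and 27.5%); in cluster 10, 7 of 13 measured and 0 (background 15.2% and 17.8%).

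In cluster 18, Isg15 was at 5.77 and 97.9 CPM from 2 and 153 UMIs, a log2 ratio of -4.08 (95% interval -7.14 to -2.21), and Ifit1 at 26 and 111 CPM in the colotomy and sham libraries. In cluster 12, whose colotomy cells gave only 118942 UMIs in all, Irf7 was at 269 and 614 CPM (32 and 1347 UMIs) and Ifi27l2a at 92.5 and 339 CPM (11 and 745 UMIs). In cluster 10, Ifi27l2a was at 61.2 and 149 CPM and Irf7 at 8.44 and 24 CPM, while the intervals of Isg15, Ifit1 and Rsad2 overlapped between the libraries.

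**Figure D3:**
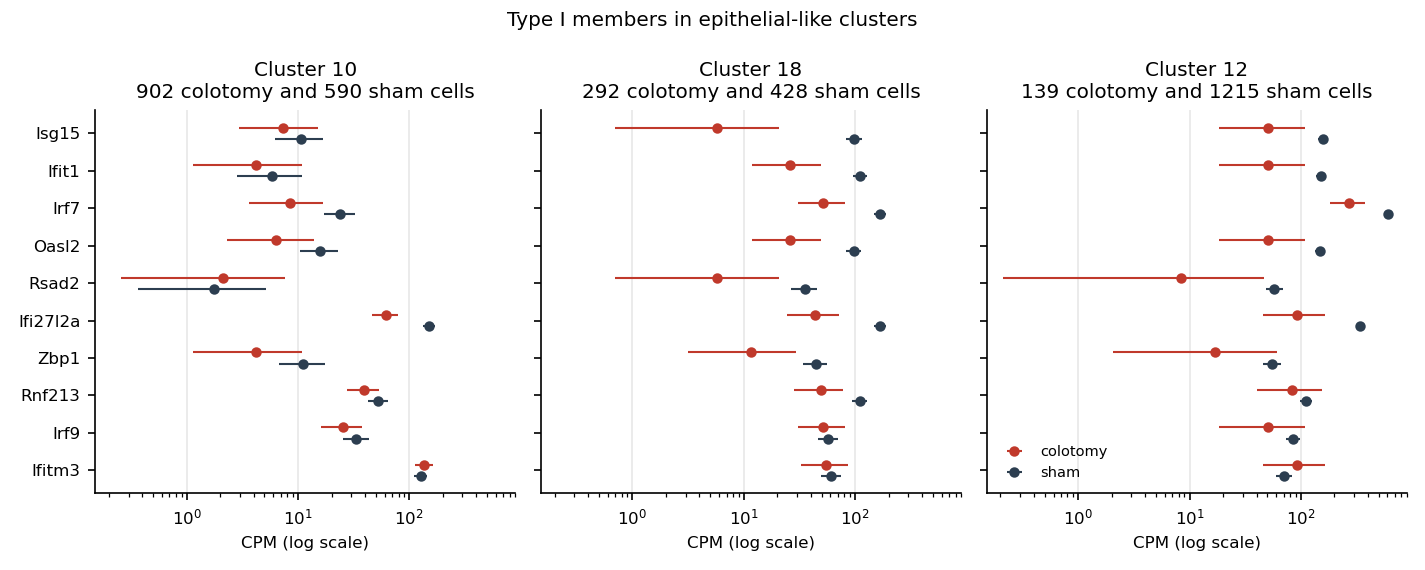
CPM (log scale) of 10 type I members in the 3 epithelial-like clusters with at least 100 cells in both libraries, colotomy in red and sham in dark; bars are 95% Poisson intervals. The gap is seen in clusters 18 and 12 (Irf7 269 against 614 CPM in cluster 12), and Ifitm3 overlaps in all 3.

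Over the whole epithelial-like class, the share of cells carrying type I RNA differed in the same direction at equal depth. With each cell thinned to 500 UMIs, 13.2% (exact 95% interval 11.5 to 15.2) of colotomy and 40.4% (exact 95% interval 38.3 to 42.4) of sham epithelial-like cells held at least 1 UMI of the type I members other than Ifitm3 and Bst2 (unthinned 21.7% and 76.5%). At least 3 such UMIs were found in 0.517% (exact 95% interval 0.208 to 1.06) and 5.6% (exact 95% interval 4.68 to 6.63). In B-like cells of the sham library the share with at least 1 was 30.6%. For Irf7 alone the thinned shares were 2.51% and 14.5% in epithelial-like cells, and 1.9% in sham B-like cells. The epithelial-like shares are not split by cluster here, and the libraries differed in cluster shares. The part of that mix in these shares was not tested.

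RNA of other cells differed alongside. In epithelial-like cells the 10 B cell markers summed to 341 CPM in the colotomy and 1874 CPM in the sham library, 10 T cell markers to 107 and 304 CPM, 9 erythroid markers to 693 and 3092 CPM, and 12 fibroblast markers to 3145 and 1003 CPM; none of the B and T markers was at 0. Sham B-like cells held 899 CPM of type I RNA. This was below the 2036 CPM of sham cluster 12 and the sham level of cluster 18, but above that of cluster 10. With B cell RNA subtracted, the log2 ratio of summed type I RNA was -1.89 in the class, -1.59 in cluster 12, -1.63 in cluster 18 and -0.44 in cluster 10. The part of T cell, erythroid and fibroblast RNA in the result was not tested. Among the 185 colotomy and 707 sham epithelial-like cells with a Y-linked and no Xist UMI, the log2 ratio was -1.64.

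Other interferon-stimulated genes were counted in the same cells. Of 41 measured genes that are not members, 27 were lower and 4 higher, with a median log2 ratio of -1.39. Of all genes tested in these cells 16.7% were lower and 25% higher, the shares to set beside each count in this paragraph. Ifit1bl1 was at 17.4 and 131 CPM and Ddx60 at 11.8 and 86.3 CPM in the colotomy and sham libraries. At the other end Ifitm2, a relative of Ifitm3, was at 235 and 147 CPM. Of 10 measured sensors of foreign nucleic acid, 6 were lower, among them the RNA sensor Ifih1 (18.8 and 52.5 CPM), and 2 were higher. Of 6 receptor genes 0 were higher and 1 was lower, Ifnlr1, with 4 and 34 UMIs and overlapping intervals. Ifnar1 was at 39 and 36.4 CPM. Of 14 constitutive proteasome subunits 1 was higher and 0 lower, and of 16 immediate early genes that tissue dissociation can induce 3 were higher and 5 lower.

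In goblet-like cells (926 and 843 cells), 10 of 15 measured type I members were lower and 0 higher (background 14.4% lower, 14.7% higher). Summed type I RNA was 305 CPM in the colotomy library and 500.5 CPM in the sham library, a ratio of 0.609 (95% interval 0.546 to 0.68). Ifi27l2a was at 39.3 and 99.5 CPM and Zbp1, a sensor of left-handed nucleic acid, at 6.04 and 19.8 CPM in the colotomy and sham libraries. B cell markers stood at 2.4% and 10.2% of their B-like level there, and with that RNA subtracted the log2 ratio of the type I sum moved from -0.71 to -0.65.

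**Figure D4:**
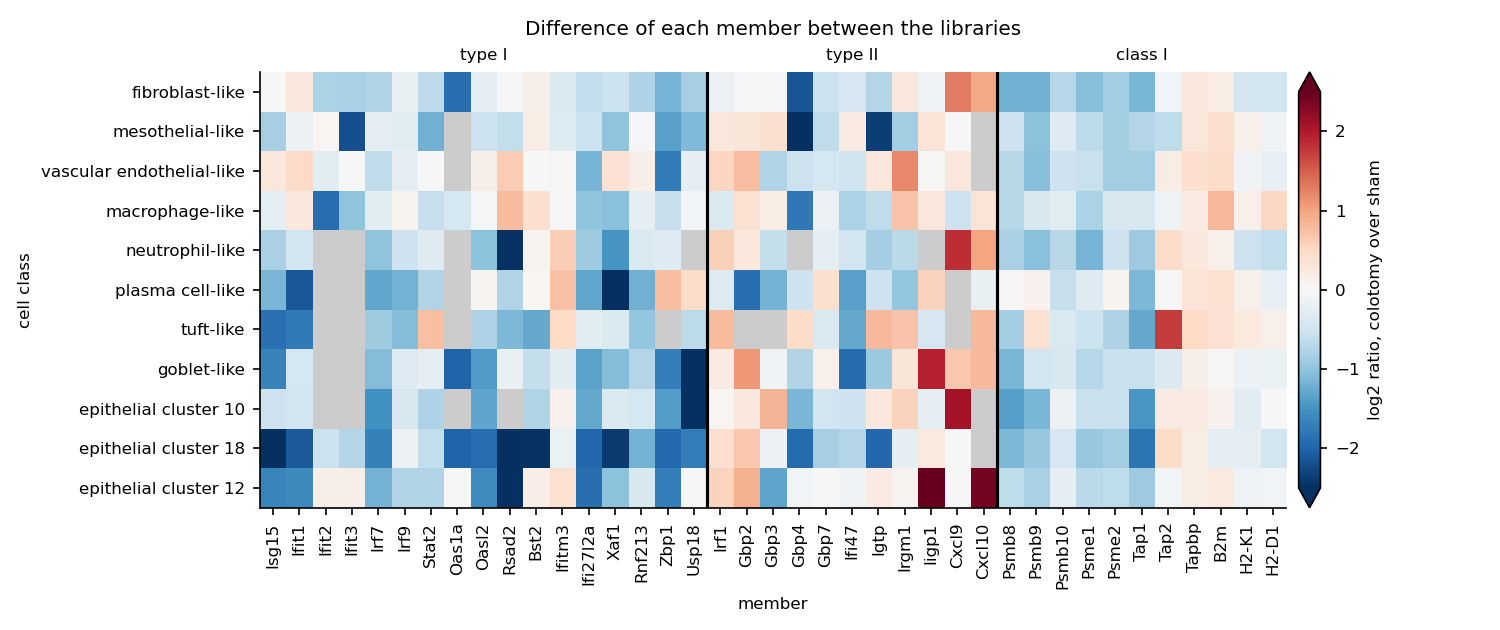
Log2 ratio of colotomy to sham CPM for the 39 members (columns, in 3 groups) in 8 cell classes and 3 epithelial-like clusters (rows); blue is lower in colotomy, red higher, grey is under 10 UMIs or no ratio, and the scale ends at 2.5. Type I members are mostly blue in the epithelial rows, and within class I the proteasome and PA28 genes are bluer than Tapbp and B2m.

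In fibroblast-like cells the type I difference was smaller and uneven across genes. There (3171 colotomy and 5155 sham cells) 9 of 17 type I members were lower and 0 higher, while 20.3% of all tested genes were lower and 17.4% higher. Summed type I RNA was 1197 CPM in the colotomy library and 1654 CPM in the sham library, a ratio of 0.724 (95% interval 0.696 to 0.753). Ifi27l2a was at 456 and 700.4 CPM (log2 ratio -0.62, 95% interval -0.71 to -0.53) and Rnf213, a large ubiquitin ligase, at 43.1 and 73.9 CPM (-0.78, 95% interval -1.08 to -0.48). Isg15 was at 18.6 and 18.6 CPM and Ifit1 at 32.2 and 26.4 CPM, with overlapping intervals. Most colotomy cells of the class lay in cluster 4, led by Col12a1, Timp1 and Col1a1, and most sham cells in cluster 2, led by Abca8a, Hmcn2 and Penk. Within clusters the ratio of the type I sum was 0.969 (95% interval 0.887 to 1.06) in cluster 2, 0.743 (95% interval 0.689 to 0.801) in cluster 3, led by Pla1a and Pi16, and 0.77 (95% interval 0.703 to 0.844) in cluster 4. Of the measured type I members 5 were lower and 1 higher in cluster 2 (background 20.1% and 18.5%), 7 and 1 in cluster 3 (21.8% and 16.7%), and 3 and 2 in cluster 4 (16.9% and 19%). The 10 B cell markers summed to 770.1 CPM in colotomy and 2716 CPM in sham fibroblast-like cells, and the 11 neutrophil markers to 221 and 18.4 CPM. With B cell RNA subtracted the log2 ratio of the type I sum was -0.72, against -0.47 as counted, and that of Rnf213 was -0.56, under 1.5-fold. Within clusters 2, 3 and 4 the subtracted log2 ratio of the sum was -0.25, -0.66 and -0.48.

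In vascular endothelial-like cells (177 and 1197 cells), 3 of 16 measured type I members were lower and 1 higher (background 19.8% lower and 25.1% higher). Summed type I RNA was 1664 CPM in the colotomy library and 1798 CPM in the sham library, and the ratio of 0.926 (95% interval 0.808 to 1.06) included 1. With B cell RNA subtracted (markers at 6.53% and 38.5% of their B-like level), the sum was at 1718 and 2361 CPM, a log2 ratio of -0.46 against -0.11 as counted. Rsad2, the higher one, was at 139.8 and 89.5 CPM (20 and 167 UMIs, with overlapping intervals) as counted and at 149 and 139 CPM with B cell RNA subtracted, where it was no longer past 1.5-fold, and Bst2, which tethers budding viruses, at 175 and 174 CPM. In macrophage-like cells (604 and 1861 cells) 4 of 17 were lower and 1 higher (background 26.9% and 19.5%), with a summed ratio of 0.804 (95% interval 0.738 to 0.875); the log2 ratio was -0.31 as counted and -0.64 with B cell RNA subtracted. Rsad2, the higher one, had a log2 ratio of 0.78 as counted and 0.57 subtracted, under 1.5-fold. Ifi27l2a was at 245 and 490.4 CPM there. Most colotomy cells of that class lay in cluster 23, led by Mmp12, Gpnmb and Spp1, and most sham cells in cluster 5, led by Folr2, Cbr2 and Pf4; within cluster 5 the ratio was 0.972 (95% interval 0.862 to 1.09), or a log2 ratio of -0.04 as counted and -0.31 subtracted. Rsad2 was at 60.7 and 15.9 CPM (13 and 54 UMIs) in cluster 5. The type I sum was also lower in mesothelial-like cells (ratio 0.748, 95% interval 0.653 to 0.853), neutrophil-like cells (0.773, 95% interval 0.666 to 0.899) and plasma cell-like cells (0.626, 95% interval 0.545 to 0.716). In these 3 classes the log2 ratio moved with B cell RNA subtracted from -0.42 to -0.69, -0.37 to -0.73 and -0.68 to -0.76. Single B cell markers in plasma cell-like cells ran from 2.89% to 85.6% in the colotomy and 20.5% to 112% in the sham library. The subtracted value of that class is therefore uncertain. Abundant members weigh most in these sums, as the subtracted colotomy and sham levels show. In plasma cell-like cells Ifi27l2a was at 156 and 470 CPM, within sums of 491 and 833 CPM. In mesothelial-like cells Ifitm3 was at 643 and 1080 CPM and Ifi27l2a at 331 and 529 CPM, within sums of 1527 and 2463 CPM. In neutrophil-like cells Ifi27l2a was at 214 and 454 CPM and Rsad2 at 21.3 and 198 CPM, within sums of 1086 and 1800 CPM. Of the measured type I members, 7 of 16 were lower and 0 higher in mesothelial-like cells (background 22.2% lower and 22.3% higher), 6 of 13 and 1 in neutrophil-like cells (21% and 31.3%), 9 of 14 and 2 in plasma cell-like cells (22.9% and 20.2%), and 9 of 13 and 1 in tuft-like cells (24.8% and 23.6%).

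Type II members gave mixed directions. In epithelial-like cells 6 of 11 were lower and 1 higher (Cxcl10, with 7 and 17 UMIs), against 16.7% and 25% of all genes, and summed type II RNA was 218 CPM in the colotomy library and 278 CPM in the sham library, a ratio of 0.784 (95% interval 0.692 to 0.886). Within clusters the ratio was 1.04 (95% interval 0.849 to 1.27) in cluster 10, 0.915 (95% interval 0.713 to 1.16) in cluster 18 and 1.35 (95% interval 1.03 to 1.75) in cluster 12, so the class value and the cluster values did not share a direction. With B cell RNA subtracted the log2 ratio was -0.41 in the class and 0.21, -0.14 and 0.26 in clusters 10, 18 and 12, and that of Cxcl10 in the class was 0.43, under 1.5-fold. Irf1 was at 105 and 121 CPM in the class and 261 and 178 CPM in cluster 12. Gbp4 was at 4.18 and 17.4 CPM (6 and 95 UMIs) in the class. Iigp1 was at 67.3 and 8.65 CPM in cluster 12 (8 and 19 UMIs), and at 21.1 and 5.47 CPM in goblet-like cells (28 and 19 UMIs), where its log2 ratio was 1.95 (95% interval 1.06 to 2.87). Of the goblet-like type II members, 4 of 11 were higher (Gbp2, Iigp1, Cxcl9 and Cxcl10) and 3 lower (Gbp4, Ifi47 and Igtp), against 14.7% and 14.4% of all genes, and the summed ratio was 1.15 (95% interval 0.975 to 1.36) (log2 ratio 0.21, and 0.33 with B cell RNA subtracted).

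In fibroblast-like cells 2 of 11 type II members were higher and 2 lower, shares near the 17.4% and 20.3% of all genes, and the summed ratio was 0.884 (95% interval 0.811 to 0.962). The log2 ratio of the sum was -0.18 as counted and -0.28 with B cell RNA subtracted. The 2 higher members were Cxcl9 and Cxcl10, chemokines known to recruit T cells through Cxcr3. Cxcl9 was at 17.9 CPM in the colotomy library (46 UMIs) and 7.27 CPM in the sham library (63 UMIs), a log2 ratio of 1.30 (95% interval 0.72 to 1.87). Cxcl10 was at 12.4 CPM in the colotomy library (32 UMIs) and 6.35 CPM in the sham library (55 UMIs), a log2 ratio of 0.97 (95% interval 0.29 to 1.62). Within clusters 2, 3 and 4 the log2 ratio of Cxcl9 was 1.76, -0.82 and 1.14, and that of Cxcl10 1.24, -0.19 and 0.67, so neither was higher in cluster 3. After subtraction of B cell RNA the class log2 ratios were 0.91 for Cxcl9 and 0.59 for Cxcl10. In the 344 colotomy and 1464 sham cells with a Y-linked and no Xist UMI, Cxcl10 was lower, at a log2 ratio of -0.98. Gbp4 was lower, at 5.82 and 25.6 CPM (15 and 222 UMIs), a log2 ratio of -2.14 (95% interval -3.00 to -1.38) and of -2.45 with B cell RNA subtracted.

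In macrophage-like cells 1 type II member was higher and 3 were lower of 11 measured (background 19.5% higher, 26.9% lower), with a summed ratio of 0.885 (95% interval 0.758 to 1.03). The log2 ratio of the sum was -0.18 as counted and -0.51 with B cell RNA subtracted. Within cluster 5, 6 of 11 were higher and 2 lower (background 20.4% higher, 20.2% lower), and summed type II RNA was 584 CPM in the colotomy library and 421 CPM in the sham library, a ratio of 1.39 (95% interval 1.15 to 1.67). Gbp3 was at 74.7 and 32.3 CPM (16 and 110 UMIs) and Gbp7 at 121 and 77.2 CPM (26 and 263 UMIs). In an unnamed cluster of myeloid cells led by Ear2, Lyz1 and Ccr2 (550 and 1516 cells), 3 of 11 were higher and 0 lower (background 20.8% higher, 19.4% lower), with a summed ratio of 1.31 (95% interval 1.13 to 1.53); Cxcl10 was at 47.2 and 15 CPM there (20 and 50 UMIs). Within cluster 5, B cell markers stood at 17.6% and 44.4% of their B-like level, and the log2 ratio of the type II sum was 0.23 with that RNA subtracted, against 0.47 as counted. Of the 6 members called higher there, 3 stayed past 1.5-fold after the subtraction, namely Irgm1 (1.46), Gbp3 (0.99) and Iigp1 (0.63). The log2 ratio of Gbp7 was then 0.29, of Cxcl9 0.06 and of Cxcl10 0.05, while Gbp4 (-1.01) and Ifi47 (-1.13) were lower. In the cluster led by Ear2 the subtracted log2 ratio of the sum was 0.26, against 0.39 as counted. In vascular endothelial-like cells the type II sum was 769 CPM in the colotomy library and 716 CPM in the sham library (ratio 1.07, 95% interval 0.876 to 1.31). Of 10 measured members, Gbp2 and Irgm1 were called higher and Gbp3 lower there (background 25.1% higher, 19.8% lower). The log2 ratio of the sum changed sign with B cell RNA subtracted, from 0.10 to -0.33, and that of Gbp2 was 0.25, under 1.5-fold.

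In fibroblast-like cells 6 of 11 class I members were lower and 0 higher, against 20.3% and 17.4% of all genes, and the 6 lower ones were the immunoproteasome subunits Psmb8, Psmb9 and Psmb10, both chains of the proteasome activator PA28 (Psme1, Psme2) and the peptide transporter subunit Tap1. Psmb8 was at 56.7 CPM in the colotomy library (146 UMIs) and 131 CPM in the sham library (1135 UMIs), a log2 ratio of -1.21 (95% interval -1.47 to -0.96). Psme1 was at 103 CPM in the colotomy library (265 UMIs) and 215 CPM in the sham library (1862 UMIs), a log2 ratio of -1.06 (95% interval -1.25 to -0.88). The intervals did not overlap for either gene. Tap2, the partner of Tap1, was at 41.2 and 43.4 CPM (log2 ratio -0.08, 95% interval -0.40 to 0.24), and with B cell RNA subtracted the log2 ratio of Tap1 was -0.86 and that of Tap2 0.17. Tapbp (tapasin), which loads peptide onto class I, was at 395 and 327 CPM, and B2m, the light chain, at 1004 and 877 CPM; both were higher in the colotomy library, by less than 1.5-fold, with log2 ratios of 0.27 (95% interval 0.17 to 0.38) and 0.19 (95% interval 0.13 to 0.26). The heavy chains H2-K1 (598 and 827 CPM) and H2-D1 (386 and 528 CPM) were lower by less than 1.5-fold. The reads of heavy chain genes can be shared among near-identical H2 genes, so the split between H2-K1, H2-D1 and the H2-Q genes is uncertain; Psme2 likewise has a copy, Psme2b. Tapbp, H2-K1, Psmb9, Tap1, Psmb8, Tap2 and H2-D1 lie together on chromosome 17 (chr17:34197721-34201454 for Psmb8 and chr17:33915899-33929292 for Tapbp, GRCm38), and B2m on chromosome 2.

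Summed, the 3 immunoproteasome subunits in fibroblast-like cells were at 132 CPM in the colotomy and 274 CPM in the sham library, a ratio of 0.484 (95% interval 0.43 to 0.542). The subunits they replace, Psmb5, Psmb6 and Psmb7, were at 206 and 228 CPM, a ratio of 0.901 (95% interval 0.817 to 0.992). In epithelial-like cells the 2 ratios were 0.554 (95% interval 0.484 to 0.632) and 0.96 (95% interval 0.856 to 1.07), in macrophage-like cells 0.699 (95% interval 0.593 to 0.819) and 1.24 (95% interval 1.04 to 1.47), and in vascular endothelial-like cells 0.601 (95% interval 0.416 to 0.844) and 0.984 (95% interval 0.681 to 1.38). Within fibroblast clusters 2, 3 and 4 the immunoproteasome ratio was 0.724, 0.501 and 0.578, and the constitutive ratio 1.06, 0.661 and 0.777. In plasma cell-like cells both ratios were near 1 (0.972 and 1.03). In macrophage-like cells the log2 ratios of Psmb8, Psmb9 and Psmb10 with B cell RNA subtracted were -0.90, -0.51 and -0.50. Within cluster 5, which held most sham cells of that class, they were -0.35, -0.22 and -0.14, each under 1.5-fold. B cells make immunoproteasome RNA (Psmb8 was at 199.7 CPM in sham B-like cells), and B cell markers differed between the libraries as above. With B cell RNA subtracted, Psmb8 in fibroblast-like cells was at 46.8 and 98.7 CPM and Psme1 at 88.9 and 173 CPM. Within cluster 2 the subtracted log2 ratios of Psmb8, Psmb9, Psmb10, Psme1 and Psme2 were -0.24, -0.24, -0.44, -0.33 and -0.40, all under 1.5-fold. That of Tap1 was -1.05. In cluster 3 the same genes were at -0.84, -1.09, -0.94, -0.91 and -1.14, and Tap1 at -0.63. In cluster 4 they were at -1.22, -0.52, 0.04, -0.71 and -0.55, and Tap1 at -0.01. The log2 ratio of the sum of all 11 class I members was -0.25 as counted and -0.09 subtracted in the class, and 0.08, 0.02 and -0.04 as counted in clusters 2, 3 and 4.

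In macrophage-like cells the class I sum was higher in the colotomy library: 6313 CPM in the colotomy library and 4977 CPM in the sham library, a ratio of 1.27 (95% interval 1.22 to 1.32), or a log2 ratio of 0.34 as counted and 0.24 with B cell RNA subtracted. One member was called higher, B2m, at 2577 CPM in the colotomy library (1387 UMIs) and 1456 CPM in the sham library (5220 UMIs), a log2 ratio of 0.82 (95% interval 0.74 to 0.91). H2-D1 was at 1239 and 869 CPM and H2-K1 at 1345 and 1236 CPM. The 2 lower members, of 11 measured (background 19.5% higher, 26.9% lower), were Psmb8 (141 and 229 CPM) and Psme1 (165 and 288 CPM). Within cluster 5 the summed ratio was 1.46 (95% interval 1.38 to 1.54), and B2m was at 2876 and 1449 CPM; in the unnamed cluster led by Ear2 it was 1.23 (95% interval 1.18 to 1.29), with B2m at 2032 and 1137 CPM. In the macrophage-like class, 12 fibroblast markers summed to 3975 and 486 CPM and 10 B cell markers to 758 and 3198 CPM. The part of fibroblast RNA in this result was not tested. With B cell RNA subtracted B2m was at 2737 and 1759 CPM.

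In epithelial-like cells 7 of 11 class I members were lower and 0 higher, against 16.7% and 25% of all genes. The sum was 2269 CPM in the colotomy library and 3563 CPM in the sham library, a ratio of 0.637 (95% interval 0.613 to 0.661), or a log2 ratio of -0.65 as counted and -0.61 with B cell RNA subtracted. Tap1 was at 19.5 and 67.3 CPM and Psmb8 at 41.1 and 124 CPM, with Tapbp at 219 and 230.3 CPM. The sum differed less within clusters: the ratio was 0.872 (95% interval 0.822 to 0.925) in cluster 10, 0.766 (95% interval 0.712 to 0.824) in cluster 18 and 0.95 (95% interval 0.871 to 1.03) in cluster 12, where H2-K1 was at 1581 and 1722 CPM. In these clusters the subtracted log2 ratio was 0.09, -0.35 and -0.19, so that of cluster 10 changed sign from -0.20. Tap1 was lower in cluster 10 (16.9 and 46.3 CPM), in cluster 18 (14.4 and 51.2 CPM) and in cluster 12 (50.4 and 95.2 CPM, with 6 colotomy UMIs and overlapping intervals). Among 20 other class I genes in the class, 13 were lower and 3 higher; Nlrc5, the transactivator of class I genes, was at 2.09 and 14.6 CPM (3 and 80 UMIs, log2 ratio -2.81, 95% interval -5.12 to -1.21), H2-Q6 at 12.5 and 75.2 CPM, and the chaperone Canx at 475 and 271 CPM. In vascular endothelial-like cells 4 of 11 members were lower and 0 higher, against 19.8% and 25.1% of all genes. The summed ratio of 1.01 (95% interval 0.937 to 1.09) included 1, and the log2 ratio with B cell RNA subtracted was -0.08. B2m was at 1783 and 1288 CPM and Psme2 at 90.9 and 165 CPM.

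**Figure D5:**
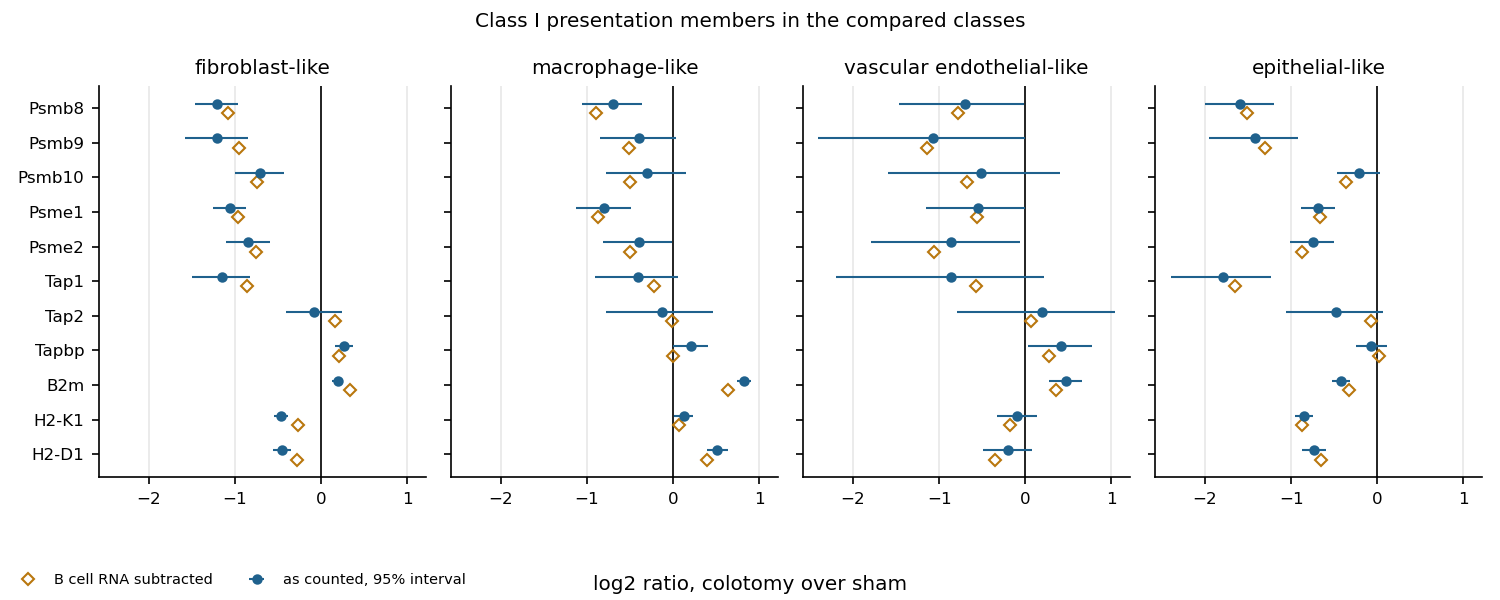
Log2 ratio of colotomy to sham CPM for the 11 class I members in 4 cell classes; filled points with bars are the values as counted with 95% intervals, open diamonds the values with B cell RNA subtracted. In fibroblast-like cells Psmb8 is at -1.21 and B2m at 0.19, and B2m in macrophage-like cells is at 0.82.

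Ligands and receptors of the pathway were counted in the same cells. Interferon ligands were nearly unmeasured: over all 42143 sham cells Ifng had 84 UMIs, 37 of them in T-like cells, and the other 20 ligand genes had at most 2 UMIs each, while the 9246 colotomy cells held 2 Ifng UMIs and none of the others. Ifngr2, the signalling chain of the interferon-gamma receptor, was higher in the colotomy library in several classes as counted. It was at 69.1 and 34.3 CPM in fibroblast-like cells (log2 ratio 1.01, 95% interval 0.74 to 1.28). In macrophage-like cells it was at 143 and 48.5 CPM (1.56, 95% interval 1.15 to 1.95). In vascular endothelial-like cells it was at 97.9 and 39.1 CPM (1.32, 95% interval 0.38 to 2.16). In epithelial-like cells Ifngr2 was at 107 and 71.2 CPM (0.58, 95% interval 0.30 to 0.86), under 1.5-fold and so not called. Its partner Ifngr1, which binds the ligand, was at 102 and 118 CPM in fibroblast-like and 177 and 125 CPM in macrophage-like cells. Irf8, a transcription factor that B cells also express, was at 66.8 and 217 CPM in fibroblast-like cells. Among inhibitors, the phosphatase Ptpn6 of blood cells was at 36.1 and 163 CPM in fibroblast-like cells, and Socs1 at 10.5 and 8.77 CPM. B cell RNA moved with Irf8 and Ptpn6 as given above, and its part in them was not tested. It was not subtracted from the receptor values either, and its part in the Ifngr2 ratios was not tested.

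The hashtag antibodies bear on this pathway, since the labels name the clones M1-42, an antibody known to bind mouse MHC class I, and 30-F11, known to bind CD45. The hashtag field calls them anti-mouse and the protocol text anti-human. Median hashtag UMIs per cell in the sham library ran from 1626 in goblet-like cells, the class with the least class I RNA, to 2142 in vascular endothelial-like cells. In the colotomy library they were 2950 in goblet-like, 3175 in fibroblast-like, 3525 in macrophage-like and 3834 in vascular endothelial-like cells. Across the 16 named sham classes the Spearman correlation of the median with summed CPM of B2m, H2-K1 and H2-D1 was 0.84, with class I UMIs per cell 0.03, with Ptprc (CD45) CPM 0.44 and with median gene UMIs -0.49; across 14 colotomy classes the values were 0.63, 0.53, 0.35 and -0.61. Hashtag UMIs and class I UMIs are both amounts per cell, and on that scale the sham correlation was near 0. These are descriptions over classes of 1 library. Hashtag UMIs are not comparable between the libraries, which held 4.07 and 1.3 hashtag UMIs per gene UMI, and hashtag-positive and negative cells were poorly separated, so tissue of origin was used only as an alternative.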

How the data were processed

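Single-cell RNA was measured in 1 colotomy and 1 sham library. The deposited values are UMI counts per gene or hashtag and barcode made with Cell Ranger 6.0.0, per the file headers. The submitters' processing notes also name mm10, STAR 2.5.1b, Seurat and Space Ranger; the annotation is not given in the sources used here. The 15547 colotomy and 44814 sham barcodes held 12002711 and 74006762 gene UMIs, and no sham barcode had under 500. Kept barcodes were clustered with scanpy 1.11.5 (2000 variable genes without sex, interferon and class I genes, 30 principal components, Leiden resolution 1) and named from marker lists. A name needed at least 3 markers and 25% of a list. Scrublet called 0 doublets and is void here; the 5% of highest scores were left out as an alternative. Hashtag-positive and negative cells lay under 1 SD apart, so tissues were compared only as an alternative.

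UMIs were summed per class and library, with exact Poisson intervals for levels and exact conditional binomial intervals for ratios. Calls were made in classes with at least 100 cells and 100000 UMIs in each library. Named genes are the members and, from other lists, those with the largest or smallest ratios; some were chosen after their values were seen. The members and lists were chosen with earlier results of these data known, and the naming thresholds, the 100000-UMI minimum and the B cell RNA subtraction after seeing the data. On simulated fibroblast-like sums of 11296 genes, 11.9% of unchanged genes passed 1.5-fold from counting error alone. In the data 14305 genes were tested in that class, so the simulation did not cover all of them. It left out those with the fewest UMIs, where counting error is largest. Other classes were not simulated, and some held fewer colotomy UMIs (143021 in vascular endothelial-like against 2575124 in fibroblast-like cells). The share passing from counting error alone was not tested for the remaining genes or the other classes. Reads of near-identical copies (Ifit3 and Ifit3b, Oas1a and Oas1g, Ifi27l2a and Ifi27l2b, the Gbp genes) cannot be told apart with certainty.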

Additional observations from a re-analysis of the deposited data

Results flagged for a closer look

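Zbp1, the nucleic acid sensor, had ratios of opposite sign in 2 classes. In plasma cell-like cells it was at 65.1 CPM in the colotomy library (29 UMIs) and 38 CPM in the sham library (101 UMIs), a log2 ratio of 0.78. In epithelial-like cells it was at 7.66 CPM in the colotomy library (11 UMIs) and 38.2 CPM in the sham library (209 UMIs), a log2 ratio of -2.32. Summed class I RNA also differed in sign, with a log2 ratio of 0.34 in macrophage-like cells and -0.65 in epithelial-like cells. Each class has 1 library per operation, and neither difference between classes was tested.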

How the results depend on the processing

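No paired analysis was possible because each operation gave 1 library. The log2 ratio of summed type I RNA stayed below 0 in epithelial-like cells under all 19 alternatives (-2.11 to -0.59) and in fibroblast-like cells under all 19 (-0.72 to -0.05). Summed class I RNA stayed above 0 in macrophage-like cells under all 16 (0.17 to 0.55). Summed type II RNA changed sign in epithelial-like (-1.04 to 0.43) and fibroblast-like cells (-0.55 to 0.12), as did class I RNA in fibroblast-like cells (-0.37 to 0.08). Of the counts of called members, 110 stayed within 1.5 times the reported count and 40 did not; the cause was not tested.

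The reported counts of members called higher and lower were 1 and 29 in epithelial-like, 2 and 17 in fibroblast-like, 3 and 9 in macrophage-like and 3 and 8 in vascular endothelial-like cells. Of all tested genes, 25% and 16.7% were called higher and lower in epithelial-like and 17.4% and 20.3% in fibroblast-like cells. In macrophage-like cells these shares were 19.5% and 26.9%, and in vascular endothelial-like cells 25.1% and 19.8%. Shares within clusters are given above. For the other alternatives the share of all genes is not given, so those counts have no background. In epithelial-like cells the count called higher was 0 with at least 1000 UMIs and 500 genes, 0 without mitochondrial, ribosomal, haemoglobin and immunoglobulin genes, 0 with TMM scaling, 0 with B cell RNA subtracted, 0 at a fold of 2, 2 at Leiden resolution 0.5, 2 with interferon genes allowed in clustering, and 3 under 10% mitochondrial UMIs, as a mean over cells (3) and with free RNA subtracted (3). In MAT-hashtag cells it was 0, with 18 lower. Within cluster 10 the counts were 2 higher and 11 lower, and within cluster 12 they were 3 and 16. In fibroblast-like cells they were 1 and 7 at a fold of 2 and 7 and 11 within cluster 4; 1 was higher in cells with a Y-linked and no Xist UMI and 1 in bowel-hashtag cells, and 7 were lower within cluster 2. In macrophage-like cells they were 5 and 15 with at least 1000 UMIs, 10 and 5 within cluster 5, and 0 and 4 at a fold of 2; 5 were higher in MAT-hashtag cells and 14 lower with B cell RNA subtracted. In vascular endothelial-like cells they were 6 and 3 in MAT-hashtag cells, 1 and 13 with TMM scaling, and 1 and 3 at a fold of 2; the count called higher was 7 at Leiden resolution 2, 5 with free RNA and 1 with B cell RNA subtracted.

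Some single members changed sign, given as log2 ratios. With at least 1000 UMIs, Irgm1 was at -0.36 in macrophage-like and Cxcl9 at 0.067 in epithelial-like cells; under 10% mitochondrial UMIs Ifit2 was at 0.13 in epithelial-like cells. In fibroblast-like cells Cxcl10 was at -0.98 in cells with a Y-linked and no Xist UMI, Igtp at 0.44 in bowel-hashtag cells, and Irf7 at 0.00639, Igtp at 0.065 and Cxcl10 at -0.37 in MAT-hashtag cells. In those MAT-hashtag cells Gbp7 was at 0.13 in the epithelial-like class, and Irf7 at 1.33 and Psmb9 at 0.28 in the vascular class. Within cluster 2, Ifi27l2a was at 0.15, Usp18 at 0.87 and Igtp at 0.27; within cluster 3, Cxcl9 at -0.82 and Cxcl10 at -0.19; within cluster 5, Igtp at 0.38. Within cluster 10, Gbp3 was at 0.85, Igtp at 0.26 and Cxcl9 at 2.07; within cluster 12, Ifit2 at 0.15, Ifit3 at 0.15, Bst2 at 0.17, Gbp7 at 0.0165 and Igtp at 0.21. Too few cells remained for vascular endothelial-like values with at least 1000 UMIs, in bowel-hashtag cells and in cells with a Y-linked and no Xist UMI, and for macrophage-like values in the last of these. Colotomy depth limits members with few UMIs, as in cluster 12.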
